A study of Hordeum vulgare with 18 samples.

Results

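Flag leaves of the barley (Hordeum vulgare) line 10_11 harvested 21 days after anthesis were compared with flag leaves of the same line harvested at 14 days. The comparison holds 6 of the 18 libraries of the series, 3 of 21 d and 3 of 14 d, which were taken by line and day from the sample titles. 10_11 is known as a near-isogenic line of the cultivar Karl that carries an allele for high grain protein on chromosome 6 and senesces earlier. Karl was sampled in the same way. Its 21 d and 14 d libraries, 3 of each, and the 7 d libraries of both lines enter the same fit. There they help set the filter, the scaling and the shared estimate of the spread behind each call. Otherwise they are used below for comparison. All plants grew in potting soil in a glasshouse and received fertilizer and nitrate up to anthesis. A sample pools 10 or more leaves, so the spread between libraries is a spread between pools and not between plants. The labels call the 3 samples of a group independent and do not say whether they share pots.

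The flag leaf is the uppermost leaf of the cereal shoot and a main source of sugars and, later, of nitrogen for the grain. As it senesces, its chloroplasts are dismantled, their proteins are degraded, and amino acids are loaded into the phloem. In cereals, transcripts of photosynthesis genes are known to decline during this period, while those of proteases, transporters and certain transcription factors of the NAC and WRKY families increase. The deposited table identifies genes by an identifier that gives the chromosome and an order along it, and it does not pair identifiers with names. None of the identifiers matched the available gene table (0 matches), so the changes are described below by level, size, place and behaviour in other libraries and not by function. The same limit applies to markers of leaf cell types and of RNA quality, whose part in the results was not tested.

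The libraries were made by MARS-seq, which counts tags from the 3′ ends of transcripts. Totals for replicates A, B and C were 1058777, 1159950 and 1384895 counts at 21 d, against 3231258, 1864058 and 2441878 counts at 14 d. Every 21 d library was thus shallower than every 14 d library, and results with the deeper libraries thinned are given beside the main counts. At a common total of 1058777 counts, 12802, 12775 and 12938 genes would be detected in the 21 d libraries and 12977, 12815 and 13072 in the 14 d libraries, groups that overlap (exact permutation p = 0.2, two-sided, where 0.1 is the smallest that 3 against 3 libraries allow). One of the 6 libraries, labelled 10_11 14 d C, stood apart. On a scale from 0 (Karl) to 1 (10_11), built from 76 genes that differ between the lines at 7 d and 21 d, it lay at 0.0609, against 0.992 and 1 for 14 d replicates A and B and -0.0612 to -0.00296 for the Karl 14 d libraries. Its place therefore goes against its label, and the totals of called genes and the tests of the named genes in 10_11 are given with and without it.

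At 21 d, 1072 genes were higher in 10_11 than at 14 d and 910 were lower, of 9973 genes tested (edgeR quasi-likelihood test, Benjamini-Hochberg adjusted p under 0.05). This is 10.7% and 9.12% of the tested genes, 19.9% together. Without the library labelled 14 d C, 984 rose and 825 fell of 10382 tested, or 9.48% and 7.95%. Of the genes called with all libraries, 834 that rose and 747 that fell were also called without it. Fewer genes were called without 14 d A, 641 that rose and 491 that fell, and 569 fell without 21 d C. With these 6 libraries alone in the fit, 567 rose and 484 fell. Leaf pools with fewer cells of a type and pools with less of a transcript per cell cannot be told apart in these data. With all 14 d and 21 d libraries thinned to the smallest total among them, 886 rose and 755 fell, and thinned counts without the library labelled 14 d C gave 783 and 708.

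The changes were moderate for most of the called genes and large for a few. The median log2 fold change was 1.20 among the genes that rose and -1.24 among those that fell, against -0.01 over all tested genes, whose middle 50% lay between -0.47 and 0.45. At least a 2-fold change was seen in 711 of the genes that rose and 659 of those that fell, at least 4-fold in 189 and 149, and at least 16-fold in 27 and 19. A further 28 genes with a fitted rise and 34 with a fitted fall of at least 4-fold did not pass the test. All 3 libraries of 21 d lay above all 3 of 14 d in 987 of the 1072 genes that rose and below them in 857 of the 910 that fell. Over all tested genes such a separation occurred in 16.5% upwards and 17% downwards. One gene that rose had 0 counts in all 14 d libraries, and 4 that fell had 0 counts in all 21 d libraries. Of the called genes, 502 that rose and 368 that fell were called again in all 6 fits that each left out 1 of the 6 libraries.

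**Figure D1:**
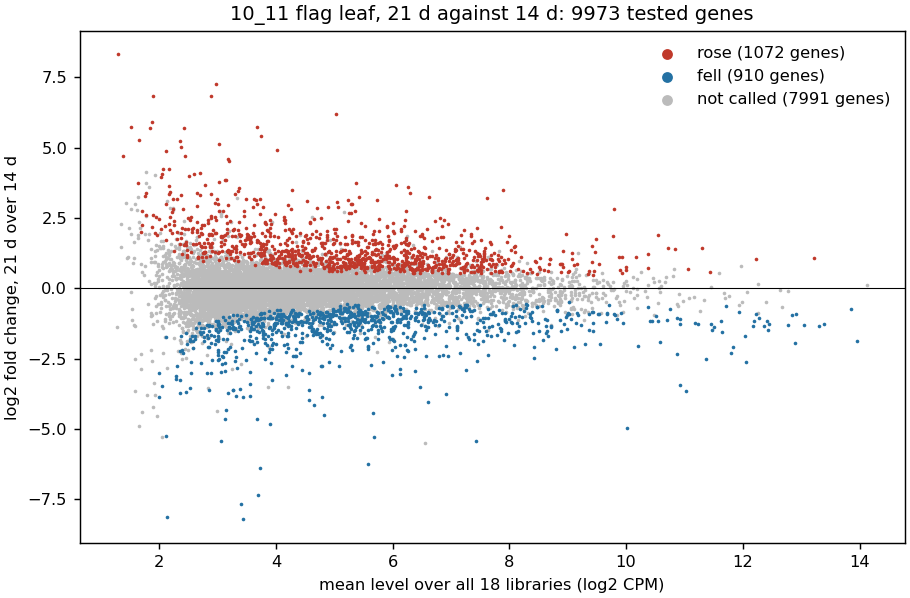
Each point is a tested gene, placed by its mean level over all 18 libraries (log2 CPM, x axis) and its log2 fold change in 10_11 at 21 d over 14 d (y axis). Red points are the 1072 genes that rose, blue points the 910 that fell and grey points the genes not called. The largest fold changes belong mostly to genes of low level, and of the 100 genes of highest level 47 fell and 12 rose.

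Genes were named by a rule that took, in each direction, the gene with the largest fold change and the gene with the highest level. It chose among 707 genes that rose and 562 that fell, each called with and without the library labelled 14 d C, with no overlap between days and a mean of at least 20 CPM at the higher day. Each level is a CPM, which scales a library's counts by its total and a TMM factor, and errors are SD over 3 libraries.

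HORVU2Hr1G045340, on chromosome 2, had the largest rise among these genes. It held 464, 446 and 22.3 CPM in the 21 d libraries A, B and C, against 2.11, 1.08 and 2.36 CPM in the 14 d libraries. The days did not overlap, which the rule required, and replicate C of 21 d was far below replicates A and B. Summed over libraries the ratio was 142, with a 95% counting interval of 85.8 to 255, and 234 without 21 d replicate C. The log2 fold change was 7.27 (SE 1.32, edgeR adjusted p = 0.00113), and 7.43 without the library labelled 14 d C (edgeR adjusted p = 0.0049). In 10_11 at 7 d it had counts in 1 of 3 libraries, with 6.87 CPM. In Karl it held 138, 4.31 and 7.20 CPM at 21 d, against 5.58, 1.80 and 1.29 CPM at 14 d, so 1 Karl library of 21 d was also high (log2 fold change 3.97, SE 1.25, edgeR adjusted p = 0.151).

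HORVU3Hr1G115990, on chromosome 3, was the most abundant of the genes that rose. It held 22100, 20800 and 19300 CPM in the 21 d libraries, against 10100, 10800 and 8250 CPM in the 14 d libraries. The libraries of a day lay close together and the days were well apart. The log2 fold change was 1.09 (SE 0.19, edgeR adjusted p = 0.000754), and 0.99 without the library labelled 14 d C (edgeR adjusted p = 0.0048). In 10_11 at 7 d the level was 8380 ± 625 CPM. Karl leaves had 8410 ± 661 CPM at 21 d against 7020 ± 1030 CPM at 14 d (SD, n = 3 each), a log2 fold change of 0.26 with a 95% interval of -0.15 to 0.67. The change in 10_11 minus that in Karl was 0.83 on the log2 scale, with a 95% interval of 0.25 to 1.40, which did not pass the test over all genes (edgeR adjusted p = 0.335).

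HORVU1Hr1G000470, on chromosome 1, had the largest fall among these genes. It had 0 counts in all 3 libraries of 21 d, against 25.9, 3.24 and 38.6 CPM in the 14 d libraries A, B and C. Replicate B was low among the 14 d libraries. The 14 d mean of 22.6 ± 17.9 CPM (SD, n = 3) met the 20 CPM of the rule only with the library labelled C, which held the highest value. With a floor of 3 counts over the 21 d group, the level was at least 33.1-fold lower at 21 d (edgeR adjusted p = 0.00616), and at least 23.9-fold lower without the library labelled 14 d C (edgeR adjusted p = 0.0147). Without 21 d replicate C the bound was at least 19.5-fold, since the floor is then set against a smaller total of counts. The gene was at 0 counts in Karl at 21 d too, against 0, 0.902 and 3.23 CPM in Karl at 14 d. It did not pass the filter on low counts when the 7 d libraries were left out of the fit.

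HORVU3Hr1G057090, on chromosome 3, was the most abundant of the genes that fell. It held 5520, 6470 and 3430 CPM in the 21 d libraries, against 17100, 21900 and 17300 CPM in the 14 d libraries. Every library of 21 d lay far below every library of 14 d. The log2 fold change was -1.87 (SE 0.24, edgeR adjusted p = 9.2e-05), and -1.92 without the library labelled 14 d C (edgeR adjusted p = 0.000204). At 7 d the level was 27700 ± 1340 CPM in 10_11 (SD, n = 3). Its means in Karl at 7, 14 and 21 d were 28400 ± 5490, 17600 ± 1520 and 13300 ± 2620 CPM (SD, n = 3 each). The change in 10_11 minus that in Karl was -1.47 on the log2 scale, with a 95% interval of -2.19 to -0.74, which did not pass the test over all genes (edgeR adjusted p = 0.205, and 0.0873 without the library labelled 14 d C).

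**Figure D2:**
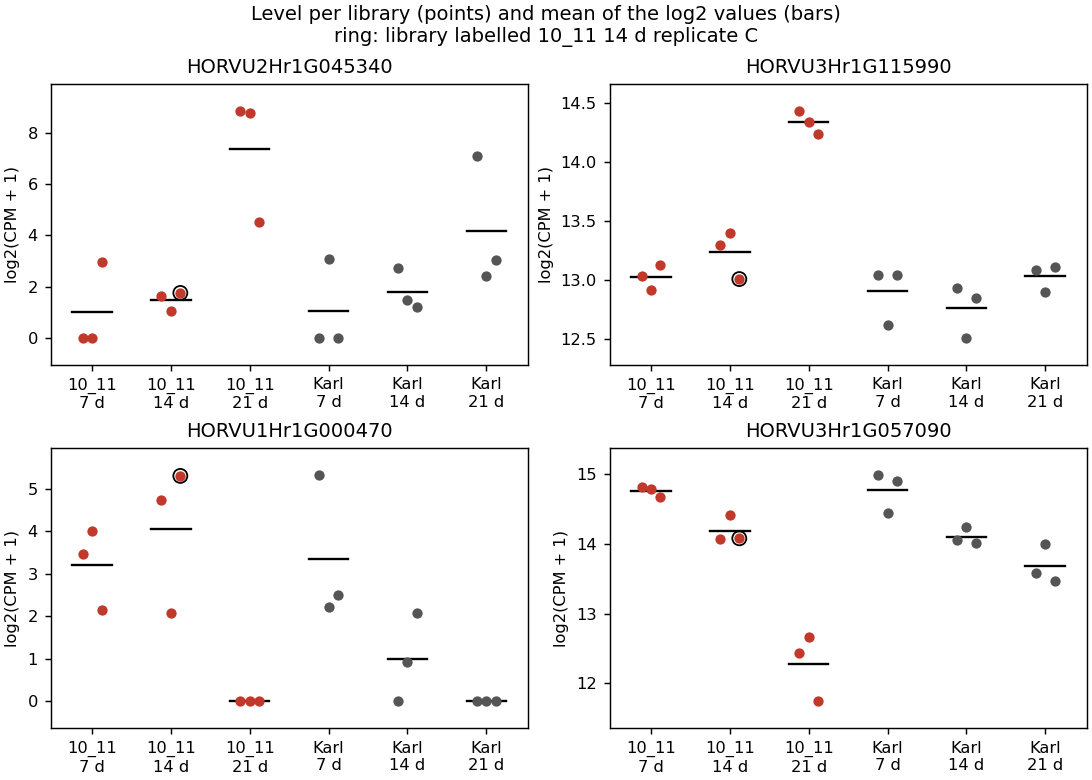
Level of the 4 named genes in each library as log2(CPM + 1), with 10_11 in red and Karl in grey, days running from 7 to 21 and a bar at the mean of the 3 values. The y axes differ between panels. The rule that named these genes required that the 10_11 libraries of 21 d and 14 d do not overlap. The ring marks the library labelled 10_11 14 d C.

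Abundant genes were called more often than rare ones, and more of the 100 most abundant over all days fell than rose. Of the 2494 tested genes with the lowest mean level, 183 rose and 114 fell, or 7.34% and 4.57%. Of the 2493 with the highest mean level, 422 rose and 365 fell, or 16.9% and 14.6%. Without the library labelled 14 d C, 182 rose and 91 fell in the set of lowest level, and 375 rose and 341 fell in the set of highest level. Test power grows with counts, so these shares do not compare how many genes changed in each set. The called genes had a median log2 fold change of 2.06 for rises and -1.82 for falls in the set of lowest level, and of 0.99 and -1.14 in the set of highest level. Among the 100 genes with the highest mean CPM over all libraries, 47 fell and 12 rose, with a median log2 fold change of -0.67. Without the library labelled 14 d C the counts were 46 and 13. That mean includes the 7 d libraries, so genes high at 7 d entered the set more easily. At 7 d these 100 genes took 49.7% ± 1.53 of counts in 10_11 (SD, n = 3). The part of this choice in the falls was not tested.

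Counts were spread over more genes in each 21 d library than in any 14 d library. The 100 most abundant genes took 33.5%, 30.8% and 30.6% of counts in the 21 d libraries, against 40.3%, 41.6% and 39.4% in the 14 d libraries, a difference of -8.80 percentage points. The groups did not overlap (exact permutation p = 0.1, two-sided, the smallest possible), and the difference was -9.33 points without the library labelled 14 d C. The number of genes that together hold 50% of counts was 284, 341 and 345 at 21 d, against 208, 187 and 221 at 14 d (exact permutation p = 0.1, two-sided, the smallest possible). Again the days did not overlap, and the mean difference was 118 genes with all libraries and 126 without the library labelled 14 d C.

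The share of counts in the called genes is given as a description, since the same libraries chose them. The genes that rose took 25.7% ± 2.15 of counts at 21 d and 10.2% ± 0.142 at 14 d (SD, n = 3 each), and the genes that fell took 14.6% ± 1.17 at 21 d and 33.2% ± 2.30 at 14 d (SD, n = 3 each). The 10 most abundant of the genes that fell held 4.93% ± 0.507 of counts at 21 d and 10.9% ± 0.855 at 14 d. The 10 most abundant of those that rose held 7.53% ± 0.479 at 21 d and 2.88% ± 0.386 at 14 d (SD, n = 3 each).

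The 21 d libraries differed among themselves in the level of the genes that rose. Replicate B was the highest 21 d library for 698 of the 1072 genes that rose, or 65.1%, against 42.2% of all tested genes. Replicates A and C were highest for 255 and 119. These libraries helped to call the genes, so a gene high in replicate B could enter the list more easily. The part of this choice in the excess was not tested. Among the 910 genes that fell, the lowest 21 d library was A for 29.9%, B for 38.7% and C for 31.4%, near the 35.8%, 36% and 28.1% of all tested genes. The range between the highest and the lowest library had a median of 0.71 on the log2 scale at 21 d and 0.49 at 14 d for the genes that rose, and 0.75 and 0.51 for those that fell. Over all tested genes it was 0.76 at 21 d and 0.51 at 14 d, so the called genes spread about as much as the others. The 21 d libraries are also the shallower ones, and the part of depth in this spread was not tested.

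To place each library with genes it had not helped to call, the fit was repeated without that library. Of the genes then called, those also tested with all libraries were kept, a filter that the library did enter. Their median position was read between 0, set at the other 14 d libraries, and 1, set at the other 21 d libraries. When held out, 21 d A, B and C lay at 0.739, 0.902 and 0.783, against -0.0487, 0.0715 and 0.237 for 14 d A, B and the library labelled C. All 3 libraries of 21 d were thus nearer to 21 d than to 14 d. The library labelled C had the place furthest towards 21 d among the 14 d libraries, each on its own scale. For 14 d A and B, the library labelled C was part of the 0 and of the calls. Their places and the shares below are therefore not like for like with those of the library labelled C. Of the 1775 genes kept for the library labelled C, 20.2% were past the midpoint in it. For held-out A and B the shares were 5.33% of 1107 and 9.46% of 1364. Replicate B of 21 d lay at 1.13 for the 774 kept genes that rose in the fit without it and at 0.680 for the 744 that fell. Replicate C of 21 d had the opposite order, 0.738 for 947 kept rises and 0.893 for 563 kept falls.

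On the scale of the fit without the library labelled C, the Karl libraries lay at -0.191 to -0.0758 at 7 d, 0.224 to 0.351 at 14 d and 0.576 to 0.738 at 21 d. The 10_11 libraries of 7 d lay at -0.209 to -0.137. The library labelled 10_11 14 d C, at 0.237 on this scale, was within the range of the Karl 14 d libraries. The 10_11 libraries that set 0 and 1 here also called the genes, which can draw other libraries inward. Held-out 10_11 libraries of 21 d lay at 0.739 to 0.902, each on its own scale. The part of this choice in the places of the Karl libraries was not tested. The 7 d libraries held 353982 to 947762 counts and carry another style of label, so their places cross that difference as well.

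**Figure D3:**
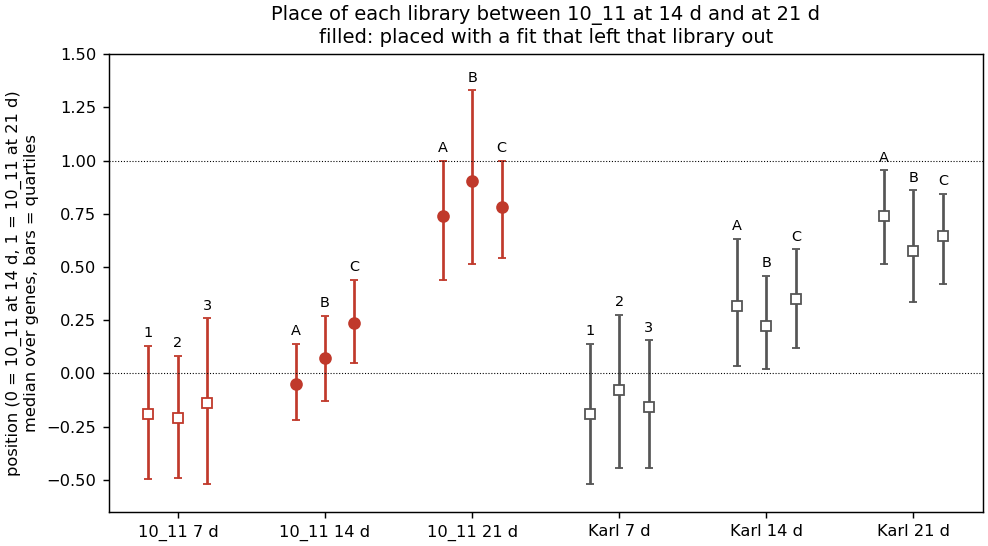
Position of each library between 10_11 at 14 d (0) and 10_11 at 21 d (1), as the median over called genes with bars from the lower to the upper quartile over genes. Filled red circles were placed by a fit that left that library out, and open squares by the fit without the library labelled 14 d C. The Karl libraries of 14 d lie at 0.224 to 0.351 and those of 21 d at 0.576 to 0.738. Each filled circle has its own scale. The libraries that set 0 and 1 also called the genes, which can draw other libraries inward.

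An age score built on Karl gave the same order of the days. The score is the mean log2 CPM of 1035 genes called higher minus that of 1083 genes called lower in Karl at 21 d than at 7 d, and none of the Karl libraries is part of the 10_11 comparison. In 10_11 it was 0.69, 1.33 and 0.81 in the 21 d replicates A, B and C, against -1.22, -1.04 and -0.56 in the 14 d replicates. The groups did not overlap and the mean difference was 1.88 (exact permutation p = 0.1, two-sided, the smallest possible). The highest 14 d score was that of the library labelled C, and the difference was 2.11 in the fit without it. Of the 1035 score genes higher in Karl, 524 (50.6%) rose in 10_11 between 14 d and 21 d and 1 fell, against 10.7% and 9.12% of all tested genes. Of the 1083 lower in Karl, 528 (48.8%) fell in 10_11 and 9 rose. The Karl libraries of 7 d were shallower than those of 21 d and carry another style of label. The choice of score genes crosses that difference as well, and its part was not tested.

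The genes that rose in 10_11 mostly had a positive change in Karl too, and those that fell a negative one. The Karl libraries share no library with the 10_11 comparison, though all enter 1 fit. From 14 d to 21 d, 973 of the 1072 genes that rose in 10_11 had a positive log2 fold change in Karl (90.8%, against 48.3% of all tested genes). Of the 910 that fell, 847 had a negative one (93.1%, against 51.6%). Their median log2 fold change in Karl was 0.44 and -0.45, beside 1.20 and -1.24 in 10_11, where the values that chose the genes are by that choice large. Few were called in Karl over this interval, which called 0.441% of tested genes higher and 0.531% lower. Of 44 genes called higher in Karl, 43 rose in 10_11 (97.7% of the Karl list, 4.01% of the 10_11 list), and of 53 called lower 36 fell in 10_11 (67.9% and 3.96%). None was called in opposite directions in the 2 lines (0 genes by edgeR). When the library labelled 14 d C was left out, 86.8% of 984 rises and 91.9% of 825 falls had the same sign in Karl.

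Part of the same genes were called in Karl between 7 d and 14 d. The Karl libraries of 7 d held 599513 to 947762 counts, against 1381441 to 2088696 at 14 d, and carry another style of label. Changes from 7 d to 14 d cross those differences as well, and their part was not tested. Over that interval, which called 5.59% of tested genes higher and 5.05% lower in Karl, 205 of the genes that later rose in 10_11 were called higher and 13 lower. Of the genes that fell in 10_11, 222 were called lower in Karl and 6 higher. These overlaps make up 36.8% of the 557 genes called higher in Karl and 44% of the 504 called lower, and 19.1% and 24.4% of the 10_11 lists. In the fit that left out the library labelled 14 d C, 253 of the 984 genes that rose (25.7%) were called higher in Karl over this interval, against 5.76% of all tested genes. Of the 825 that fell, 232 (28.1%) were called lower in Karl, against 4.91%. As a description over 9973 genes, none of them a replicate, Pearson's r between the log2 fold changes of 10_11 and those of Karl was 0.619 for the later Karl interval and 0.442 for the earlier one. Both values were 0.537 over the 10382 genes tested when the library labelled 14 d C was left out.

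The median levels of the called genes show the same pattern by day. For the genes that rose, the median of the group means in 10_11 was 4.73, 4.96 and 6.10 log2 CPM at 7, 14 and 21 d, and in Karl 4.71, 5.21 and 5.67. For the genes that fell it was 5.79, 5.57 and 4.34 log2 CPM in 10_11 and 5.82, 5.30 and 4.83 in Karl. At 7 d the lines lay close together, at 14 d the Karl medians were further in the direction of change, and at 21 d the 10_11 medians were. The 14 d and 21 d medians of 10_11 follow from the choice of genes and are a description. The library labelled 14 d C is included in 10_11 at 14 d. Steps from 7 d to 14 d also cross the difference in depth and label style of the 7 d libraries.

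**Figure D4:**
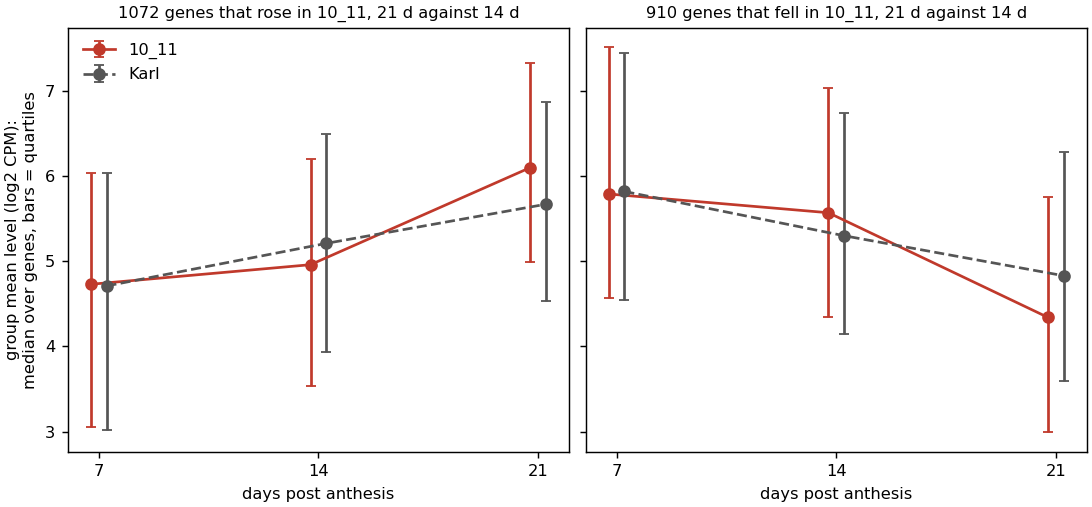
Median level (log2 CPM) of the 1072 genes that rose and the 910 that fell in 10_11 between 14 d and 21 d, by day, in 10_11 (solid red) and Karl (dashed grey). Bars run from the lower to the upper quartile over genes. The 2 lines have nearly equal medians at 7 d and cross between 14 d and 21 d in both panels.

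For each gene the log2 fold change in Karl was subtracted from that in 10_11 and the difference was tested. With all libraries edgeR called 0 genes (0% of those tested), while 1081 (10.8%) had an unadjusted p under 0.05. DESeq2 called 64 genes. When the library labelled 14 d C was left out, edgeR called 9 genes (0.0867%), 7 with a more positive and 2 with a more negative change in 10_11, and DESeq2 called 170. Leaving out Karl 14 d B gave 2 genes and leaving out Karl 21 d A gave 1. All 9 genes called without the library labelled 14 d C were also called in 10_11 at 21 d against 14 d in that fit. With all libraries, edgeR thus showed a difference between the lines for no gene called in 10_11 and not in Karl. Without the library labelled 14 d C, edgeR again showed no difference for most such genes. Over the genes called in 10_11, the median standard error of the difference was 0.42 on the log2 scale.

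The gene with the smallest adjusted p for this difference, both with and without the library labelled 14 d C, was HORVU1Hr1G089180 on chromosome 1, which was chosen after its values were seen. In 10_11 it held 2.64, 4.04 and 0.602 CPM in the 21 d libraries A, B and C, against 129, 104 and 39.7 CPM in the 14 d libraries. The 21 d values come from 3, 5 and 1 counts, near the floor, so the size of the fall is loosely known. In Karl it held 6.88, 19.4 and 17.2 CPM at 21 d, against 19.1, 35.2 and 19.4 CPM at 14 d. The value of the library labelled 10_11 14 d C lay between those of the other 10_11 14 d libraries and those of Karl. The changes were -5.28 (SE 0.58) in 10_11 and -0.73 (SE 0.44) in Karl on the log2 scale, a difference of -4.55 with a 95% interval of -6.19 to -2.90 (edgeR adjusted p = 0.0965). The difference was -4.91 without the library labelled 14 d C (edgeR adjusted p = 0.0053), and over 20 alternatives its adjusted p ranged from 2.34e-08 to 0.369. Leaving out 1 library brought it past the threshold in 3 of 12 cases. Its level at 7 d was 485 ± 156 CPM in 10_11, beside 368 ± 23.4 CPM in Karl (SD, n = 3 each).

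The called genes were spread over all chromosomes. The share that rose ran from 8.37% of tested genes on chromosome 4 to 12.6% on chromosome 2, around the overall 10.7%, and the share that fell from 8% on chromosome 1 to 10.9% on chromosome 6, around 9.12%. On chromosomes 4 and 6 more genes fell than rose, with 132 against 109 and 125 against 112, and on the other 5 more rose. In the fit without the library labelled 14 d C the same chromosomes had more falls than rises, with 116 against 97 and 105 against 97. The balance depends on the scaling: 54.1% of all called genes rose with TMM factors and 58.1% with RLE factors. The counts by chromosome were made with TMM factors only. Along the gene order of the 7 chromosomes, cut into 3 equal stretches, 20.8%, 19.4% and 19.6% of tested genes were called. These shares were not tested, since genes are not replicates of a condition.

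**Figure D5:**
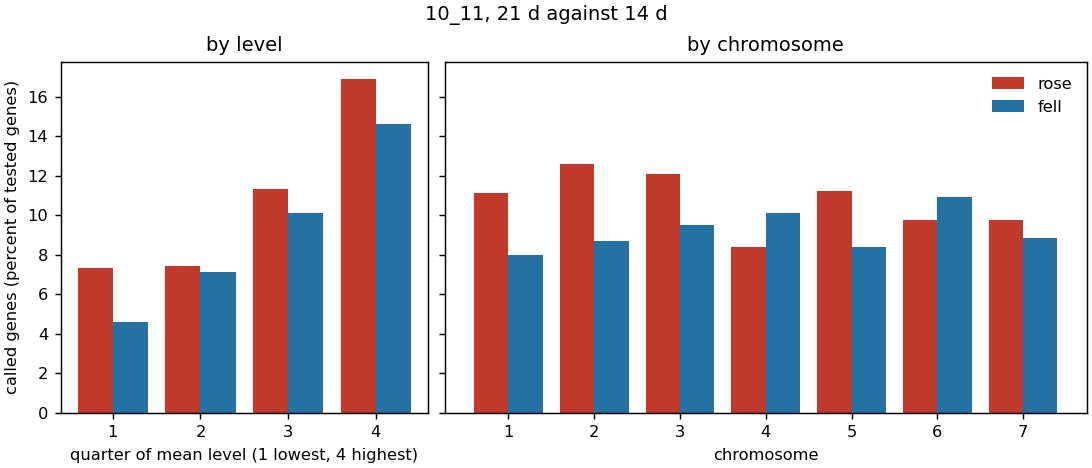
Percent of tested genes that rose (red) and fell (blue) in 10_11 at 21 d against 14 d, by mean level in 4 sets of equal size (left) and by chromosome (right). The shares climb with level, to 16.9% and 14.6% in the set of highest level, and vary less between chromosomes.

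Neighbouring genes shared their direction slightly more often than the background, a difference that was not tested. The next tested gene in the identifier order also rose for 12.5% of 1050 genes that rose, against 10.8% over all positions, and also fell for 11.6% of 889 genes that fell, against 9.15%. The longest run of neighbouring tested genes that moved together held 4 genes. There were 6 such runs, 4 that rose and 2 that fell, and in 2 of those that rose not every gene was called without the library labelled 14 d C. A run of 4 on chromosome 1, which holds HORVU1Hr1G089180, had log2 fold changes of -5.28 to -2.21. Its summed level was 87.9, 32.4 and 40.3 CPM in the 21 d libraries A, B and C, against 433, 466 and 160 CPM in the 14 d libraries. Karl had 21.3 to 72.6 CPM at 21 d, against 60.4 to 117 CPM at 14 d and 513 to 611 CPM at 7 d. The 10_11 libraries of 7 d had 627 to 1230 CPM. In the library labelled 10_11 14 d C the summed level was again between the other 10_11 14 d libraries and Karl at 14 d. A run of 4 on chromosome 3 was much more abundant, with 4580, 6000 and 4160 CPM at 21 d, against 11900, 14000 and 11800 CPM at 14 d, and log2 fold changes of -1.58 to -1.06. A run of 4 that rose on chromosome 1 had 402, 489 and 376 CPM at 21 d, against 114, 136 and 114 CPM at 14 d. Neighbours can be near-identical copies whose tags counting may split or drop, which leaves the single genes of such runs uncertain.

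The authors' deposited table gives its own comparison of these groups. Of 13626 genes in the authors' deposited table, 1216 had an adjusted p under 0.05 and were higher at 21 d, and 771 were lower. Of those 2 lists of the authors' deposited table, 1038 and 741 were called in the same direction by edgeR and 0 in the opposite one. The fold changes in the authors' deposited table run as 14 d over 21 d on the log2 scale. The authors' deposited table gives -7.44 for HORVU2Hr1G045340, -1.14 for HORVU3Hr1G115990, 7.30 for HORVU1Hr1G000470 and 1.82 for HORVU3Hr1G057090, with all 4 past its threshold.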

How the data were processed

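The data are 1 table deposited by the authors, with 13626 genes. In it the raw columns are whole-number read counts of each library, per the file headers. Per the file headers it also holds the authors' own comparisons, of which the log2 fold change and the p-values of 10_11 at 14 d over 21 d were used. A further 36 per-sample columns of normalized and transformed values were not used. The submitters' processing notes name bcl2fastq, cutadapt, STAR 2.4.2a, HTSeq and DESeq2. Which genome build and annotation they used, and whether molecular identifiers were collapsed, was not given in the sources used here, so counting intervals and floors cover counting error only.

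The counts were fitted in R 4.3.3 with edgeR 4.0.16: filterByExpr by group, TMM, and glmQLFit and glmQLFTest (two-sided) on all 18 libraries, with a mean for each line and day (12 residual degrees of freedom). All groups thus share 1 estimate of the spread. The adjusted p threshold was 0.05. Standard errors were approximated as the log2 fold change over the square root of F. Log2 CPM uses a prior count of 2. The script was tested on simulated data. Alternatives were DESeq2 1.42.0, its size factors, no filter, fewer libraries, a replicate block, thinned counts and leaving out each library. DESeq2 and thinned counts without the library labelled 10_11 14 d C were added after the data were seen. The groups, lists, tests and the rule for named genes were chosen with earlier results of these data known. The rule took, in each direction, the gene with the largest fold change and the gene with the highest level in the higher group. It asked for a call with and without that library, at least 20 CPM and no overlap.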

Additional observations from a re-analysis of the deposited data

How the results depend on the processing

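The counts of genes that rose and fell stayed within 1.5 times of 1072 and 910 under 13 and 12 of 15 alternatives. With the 6 libraries of the groups compared alone they were 567 and 484. Leaving out 1 library of the 6 in turn gave 641 to 996 that rose and 491 to 825 that fell, the lowest pair without 14 d A, and 569 fell without 21 d C. With all libraries DESeq2 called 1230 and 860, edgeR with RLE factors 1140 and 823, and no filter 1091 and 853. For the difference of the lines' changes, 0 genes were called with all libraries by edgeR, 64 by DESeq2 and 2 with thinned counts. Over the 12 fits that left out 1 library each the count was 0 to 9: it was 9 when the library labelled 10_11 14 d C was left out, 2 without Karl 14 d B and 1 without Karl 21 d A. Leaving out the library labelled C and using DESeq2 gave 170, and thinned counts then gave 3. The age score difference of 1.88 was 1.54 with genes taken from the earlier Karl interval, 7 d to 14 d, and 1.60 to 2.11 over the fits without 1 library. The share difference of -8.80 points was -10.3 with 50 genes and -7.79 with 500, and -9.70 to -8.21 without 1 library. The causes of these shifts were not tested. The 4 named genes kept their direction and their call under each alternative in which they were tested. For the fit without the library labelled 14 d C, the rule that named them had required this.

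With a replicate block, 900 genes rose and 745 fell, and the difference of the lines' changes was called for 0 genes. Same-lettered libraries of the 2 days did not deviate together (correlations of -0.0485, -0.065 and -0.0106 for A, B and C), so the letters were not used to pair samples. For the share and the score, the mean of the paired differences equals the difference of the means, -8.80 and 1.88, whatever the pairs. As the days do not overlap in either measure, any pairing gives the same direction in 3 of 3 pairs. Pairing is therefore no check on these 2 results. At 21 d a floor of 3 counts corresponds to 2.17 to 2.83 CPM per library, which limits what can be said of rare transcripts.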
